A study of Homo sapiens with 24 samples.

Results

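The Argonaute and TNRC6 mRNAs encode the proteins that carry out microRNA (miRNA) silencing, and here they were examined as RNAs that Ago2 itself binds. Members were all peaks of an Ago2 crosslinking-immunoprecipitation (CLIP) table whose annotated gene was 1 of 7. These were EIF2C1, EIF2C2, EIF2C3 and EIF2C4, the older symbols of AGO1, AGO2, AGO3 and AGO4, and TNRC6A, TNRC6B and TNRC6C. All 7 genes were listed, with 100 of the 24041 peaks in the table, which covers 6088 genes. TNRC6A held 27 peaks, EIF2C1 24, TNRC6B 21, TNRC6C 16, EIF2C2 7, EIF2C4 4 and EIF2C3 1.

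The cells were 293S, a human embryonic kidney line, either given 1 mM sodium arsenite for 30 min or left untreated. Ago2 mRNA CLIP was done on 4 arsenite-treated and 4 untreated biological replicates, and a second kind of Ago2 CLIP library, named LO band in the labels and used for miRNAs, on 4 and 4 as well. Paired RNA-seq libraries of the same cultures were not analysed here. Each peak has 1 log average over both treatments and 1 log ratio of arsenite over untreated signal, both made by the authors from all replicates together, so no replicate spread, test or sequencing depth can be given. The log base and the normalizer are not stated, so values are not turned into folds, and a change in bound RNA and a change in the amount of an mRNA cannot be told apart. Of 9 genes typical of 293 cells, 3 (NEFL, VIM and LHX1) had a peak, while NEFM, NEFH, INA, KRT8, KRT18 and PAX2 had none. Of 13 markers of blood, liver, connective, endothelial, pancreatic and heart cells 0 had a peak. The share of all human genes with a peak was not worked out, so these counts do not identify the cells.

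Argonaute proteins hold a miRNA and use its seed, bases 2 to 8, to find complementary sites, most often in 3' untranslated regions (3'UTRs). Ago2 is the human Argonaute best known for cutting perfectly matched targets. TNRC6 proteins, also called GW182 proteins, bind Argonautes and recruit deadenylases, which shorten the poly(A) tail and repress the mRNA. Arsenite is an oxidative stressor that blocks translation initiation and brings mRNAs and Argonaute proteins into stress granules.

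The seeds that recur on these mRNAs are shown first, because the results by seed family turn on their letters. Of the 50 miRNA families whose seed matches the authors listed at peaks, 26 were matched by a member peak and 11 by at least 2. The lines below give the mature sequence of the miRNA with the highest mean on Ago2 in 10 of these 11, from RefSeq (GRCh38.p14), with the seed in capitals. The 11th is miR-374a-5p. In the miR-23 family 3 of the 4 listed entries with a sequence have the printed seed, and in the other printed families all do.
miR-17-5p: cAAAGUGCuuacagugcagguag
miR-30e-5p: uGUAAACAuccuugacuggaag
miR-19b-3p: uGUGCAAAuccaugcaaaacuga
miR-301a-3p: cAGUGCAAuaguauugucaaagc
miR-16-5p: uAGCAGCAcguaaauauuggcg
miR-103a-3p: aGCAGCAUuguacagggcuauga
miR-17-3p: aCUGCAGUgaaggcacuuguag
miR-23b-3p: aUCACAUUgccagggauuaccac
miR-21-5p: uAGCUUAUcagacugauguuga
miR-186-3p: gCCCAAAGgugaauuuuuuggg
Several of these seeds overlap. The site complementary to the miR-19 seed, UUUGCAC, shares 6 letters with the miR-130/miR-301 site, UUGCACU, and that site shares 5 with the miR-17 site, GCACUUU. A single run, UUUGCACUUU, would therefore match all 3 families. The letters under the peaks were not read here.

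Across the 7 mRNAs the Ago2 signal leaned towards arsenite about as often as in the table as a whole. Of the 100 member peaks, 72 had a log ratio above 0 (72.0%, Wilson 95% interval 62.5 to 79.9% over peaks), against 70.3% of all peaks. The interval covers counting error only, and peaks of 1 mRNA share their source. The member median was 1.02, with quartiles of -0.13 and 1.45, and the median over the peaks of all other genes was 0.65. A log ratio above 1 was listed for 52 member peaks (52.0%), against 39.1% of all peaks, and one below -1 for 7, against 7.43%. Of the members 79 were 3'UTR peaks, a region with higher values in the table as a whole. Among 3'UTR peaks alone, 49.4% of members and 45.8% of all peaks were above 1, with medians of 0.99 and 0.88. Whether the member values differ from the rest was not tested, since there are no replicate values.

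The median log ratios of the 7 genes ran from 1.53 to 0.09. EIF2C3 came first with its 1 peak, then EIF2C2 with 1.44, EIF2C4 and TNRC6B with 1.18 each, TNRC6A with 1.07, TNRC6C with 0.50 and EIF2C1 with 0.09. The interquartile ranges of the peak values overlapped between every 2 neighbours in this order that had more than 1 peak, and the EIF2C3 value lay within the range of EIF2C2. All 7 medians were above 0, as were those of 81.3% of all genes. At the peak with the highest log average, 6 of the 7 were above 0, against 79.9% of all genes. TNRC6C was the exception there, at -0.23.

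**Figure D1:**
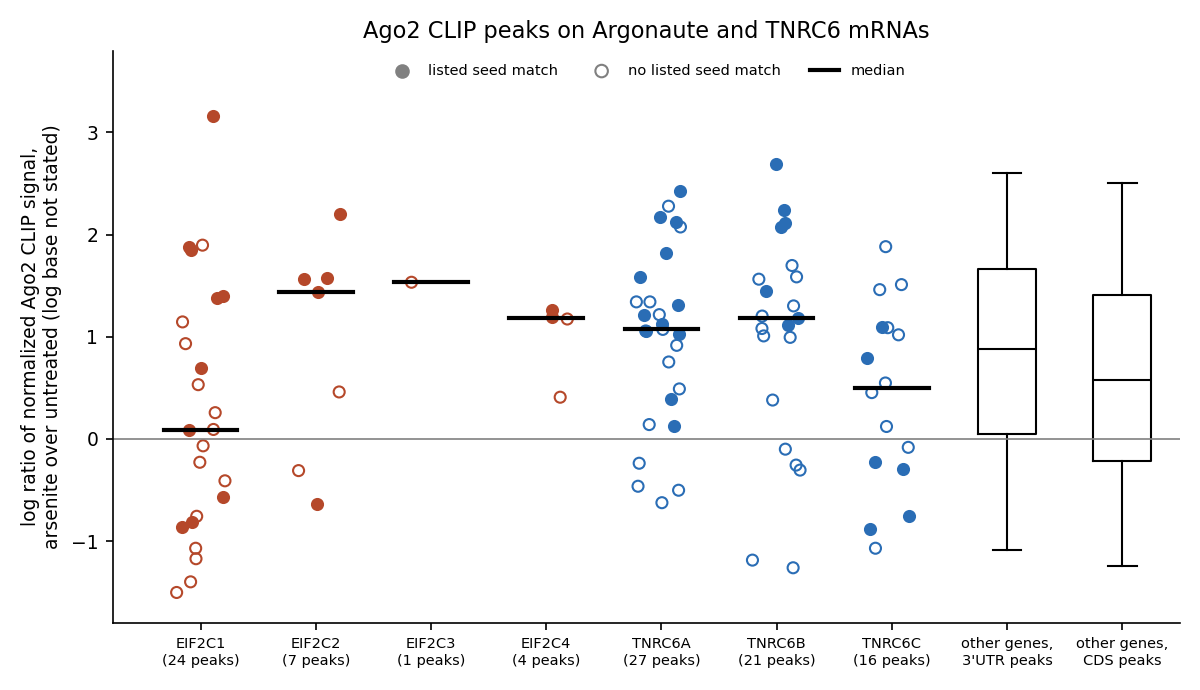
Log ratio of normalized Ago2 CLIP signal, arsenite over untreated (vertical axis, log base not stated), at each of the 100 peaks of the 7 genes. Filled points have a listed seed match, open points have none, and black bars are medians. The boxes at the right give the quartiles and median of the 3'UTR and coding peaks of all other genes, with whiskers at the 5th and 95th percentiles. EIF2C1 spreads from -1.50 to 3.16 around a median of 0.09, and the TNRC6A median is 1.07.

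EIF2C2, the mRNA of Ago2 itself, lies on chromosome 8 and had 4 coding sequence (CDS) peaks and 3 3'UTR peaks. Its coding log ratios were 2.21, 1.56, -0.31 and -0.64. The highest was also its peak with the highest log average (-4.76) and was listed with the miR-17 seed, while the second matched miR-30. In the 3'UTR the values were 1.58, 1.44 and 0.46, all above 0. The first of these was listed with 3 families, miR-125, miR-151a-3p and miR-21. The CDS therefore held both the highest and the lowest values of this mRNA.

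The other 3 Argonaute genes are neighbours, with AGO4, AGO1 and AGO3 in a row and no other protein-coding gene between them in the GRCh38.p14 annotation, but Ago2 CLIP peaks were spread over them very unevenly. EIF2C4 had 4 3'UTR peaks with log ratios of 1.19, 0.41, 1.26 and 1.17. The first matched the miR-21 seed and the third the miR-210 seed. EIF2C3 had a single 3'UTR peak, with a log ratio of 1.53 and no listed seed (hg19, chromosome 1, 36521624 to 36521661, plus strand). EIF2C1 had as many as 24, a number reached by only 91 of the 6088 genes (1.49%), where the median gene had 2.

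EIF2C1 had a wide spread as well as the lowest median of the 7 genes. That median was above those of 21.3% of all genes and 29.1% of genes with at least 10 peaks. Its log ratios ran from -1.50 to 3.16 with a standard deviation of 1.23 over peaks, larger than that of 92.6% of the 529 genes with at least 10 peaks. Of the 23 peaks in its 3'UTR, 12 were above 0 (52.2%), against 76.2% of all 3'UTR peaks, and 4 were below -1. Its only CDS peak, which matched the miR-103/miR-107 seed, had 0.69. For comparison, the standard deviation was 0.87 for TNRC6A, 1.07 for TNRC6B and 0.91 for TNRC6C, with a median of 0.88 over those 529 genes.

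High and low peaks lay in turn along the EIF2C1 3'UTR, which the peaks cover over 4581 nucleotides. Counted from the start of the first peak (-0.57), the peaks at 225, 765 and 1012 nucleotides had log ratios of 1.15, 1.40 and 1.85. The peak at 765 had the highest log average of the gene (-4.09) and matched miR-103/miR-107 and miR-7. That at 1012 matched miR-17, miR-130/miR-301 and miR-19 at once (hg19, chromosome 1, 36386195 to 36386255, plus strand). From 1531 to 3152 nucleotides the values went both ways, with the 4 lowest of the gene at -1.50, -1.40, -1.17 and -1.07, none of which had a listed seed. In the same stretch a peak matching miR-15/16 and miR-30 had 1.38, and one with no listed seed 1.90. The peak at -1.07 lies inside a longer one at -0.86, which was listed with miR-17-3p and miR-28/miR-708. The highest value of all member peaks, 3.16, was at 4303 nucleotides and matched miR-3065-5p. The next peak, which matched miR-130/miR-301, had 1.88, and the last 2 had -0.23 and -0.41.

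**Figure D2:**
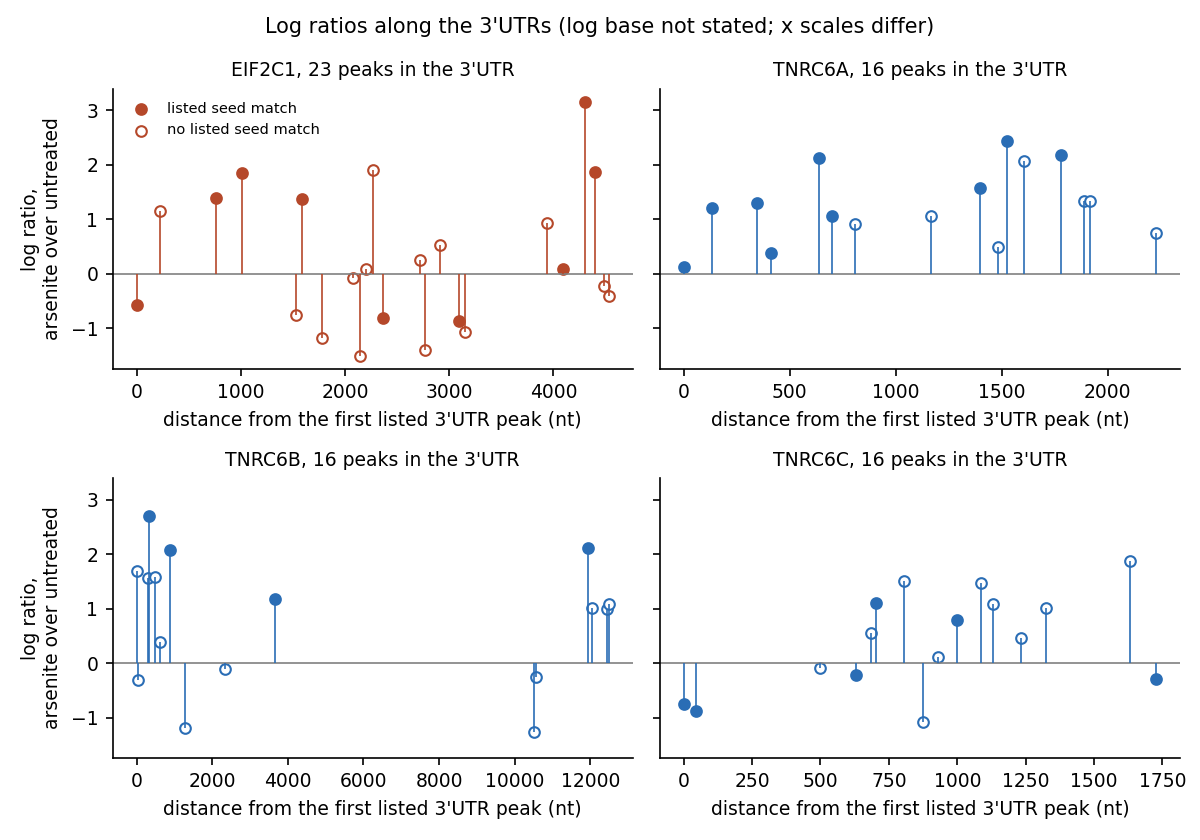
Log ratio, arsenite over untreated (vertical axis, log base not stated), against the distance in nucleotides from the first listed 3'UTR peak, for the 4 genes with at least 10 peaks. Filled points have a listed seed match and open points none. All 16 TNRC6A peaks are above 0, EIF2C1 has 12 of 23 above 0, and the TNRC6B peaks lie in 2 groups with a gap of 6815 nucleotides between them.

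TNRC6A, the founding GW182 protein, had signal leaning to arsenite along its whole 3'UTR. All 16 of its 3'UTR peaks were above 0, against 76.2% of all 3'UTR peaks, with values from 0.12 to 2.43 and a median of 1.26. The peak with the highest log average of any member (-3.47) matched miR-17 and had 2.13 (hg19, chromosome 16, 24835778 to 24835837, plus strand). The highest log ratio, 2.43, was at a peak matching miR-30 and the miR-23 family (24836665 to 24836710). The peak before it, which overlaps it by 1 nucleotide, had 0.49 with no listed seed. The next peaks gave 2.07 with no listed seed and 2.17 with the miR-23 seed. In the coding sequence 7 of 10 peaks were above 0, against 68.4% of all CDS peaks. The coding values ran from -0.62 to 2.28, and the only 5'UTR peak had -0.46.

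TNRC6B showed the largest value of a TNRC6 peak. This 3'UTR peak, with matches to miR-130/miR-301 and miR-19, had a log ratio of 2.69 (hg19, chromosome 22, 40719628 to 40719683, plus strand). The 3'UTR peaks of TNRC6B spanned 12518 nucleotides and fell into 2 groups, 10 before and 6 after a stretch of 6815 nucleotides with no listed peak. The medians of these groups were 1.37 before and 1.00 after, and the lowest value of each was -1.19 and -1.26. Its 3 coding peaks had 1.30, 1.20 and 2.24, the last with a miR-196 match. A 3'UTR peak matching miR-181 had 2.07. The 2 peaks in 5'UTRs, annotated to 2 different transcripts, had 1.12 with a miR-19 match and 1.45 with a miR-17 match. With the 5'UTR peak of TNRC6A, 2 of 3 members in 5'UTRs were above 0, against 60.8% of all 5'UTR peaks. TNRC6B also had the lowest median log average of these mRNAs (-6.51), with 14 of its 21 peaks in the lowest 25% of log averages, more than any other member.

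TNRC6C, whose 16 peaks were all in the 3'UTR, was split. Above 0 lay 10 values, up to 1.88, and below 0 lay 6, down to -1.07, so that 62.5% were above 0, against 76.2% of all 3'UTR peaks. The first 2 peaks, which overlap, had -0.76 with a miR-17 match and -0.88 with a miR-18a-3p match (hg19, chromosome 17, 76101238 to 76101329 and 76101284 to 76101383, plus strand). After a stretch of 353 nucleotides with no listed peak, 10 of the remaining 14 were above 0, with a median of 0.67. The peak with the highest log average (-4.04) matched miR-130/miR-301 and miR-19 and had -0.23. Its 2 miR-30 peaks had 1.09 and 0.79.

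By protein family, the 36 Argonaute peaks had a median log ratio of 0.50, with 23 above 0 (63.9%), and the 64 TNRC6 peaks a median of 1.06, with 49 above 0 (76.6%), where 70.3% of all peaks were. That difference of -0.57 rested on EIF2C1, which holds 24 of the Argonaute peaks. Without it the Argonaute median was 1.23 and the difference 0.16. With the lowest 25% of log averages left out, the difference was -0.21, and with overlapping peaks counted once it was -0.30. The 2 families are not shown to differ.

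By region, the member peaks had close medians in 3'UTR and CDS. The 79 3'UTR peaks had a median of 0.99, with 57 above 0 (72.2%), and the 18 CDS peaks a median of 1.10, with 13 above 0 (72.2%). The shares over the whole table were 76.2% in the 3'UTR and 68.4% in the CDS. Over all other genes the 3'UTR median was 0.88 and the CDS median 0.58. The 7 lowest member peaks, those below -1, were all in 3'UTRs: 4 in EIF2C1, 2 in TNRC6B and 1 in TNRC6C. Of all peaks, 5.75% of those in 3'UTRs and 8.02% of those in the CDS were below -1, so 0 of the 18 member CDS peaks is a count too small to read.

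A seed match from the authors' list was present at 42 of the 100 member peaks (42.0%), against 31.5% of all peaks. In the 3'UTR it was present at 32 of 79 (40.5%), against 38.5%, and in the CDS at 8 of 18 (44.4%), against 26.6%. Member peaks with a match had a median log ratio of 1.24, and those with none a median of 0.51. The peaks of other genes had medians of 1.05 with a match and 0.48 without, the same direction. Of the first, 34 were above 0 (81.0%), against 79.2% of all peaks with a match. Of those with none, 38 of 58 were above 0 (65.5%), against 66.2% of all such peaks. None of the 42 peaks with a match was below -1, and 7 of the 58 without one were, against 4.92% of all peaks with a match and 8.58% of all without. The EIF2C1 peak at -1.07, counted as unmatched, lies inside a matched peak at -0.86. Log averages moved with this split, with a median of -5.66 for peaks with a match and -6.09 for those without, and their part in the result was not tested.

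Gene by gene, 5 of the 6 mRNAs with both kinds of peak had the higher median at peaks with a seed match, and TNRC6C had the lower. Of all 2582 genes with both kinds, 63.5% had the higher median at matched peaks. In EIF2C1 the medians were 1.03 over 10 peaks with a match and -0.15 over 14 without, and in TNRC6B 2.07 over 7 and 1.00 over 14. TNRC6A showed 1.26 over 12 peaks with a match and 0.92 over 15 without, EIF2C2 1.56 over 5 and 0.07 over 2, and EIF2C4 1.23 over 2 and 0.79 over 2. All 12 matched peaks of TNRC6A and all 7 of TNRC6B were above 0, as were 79.2% of matched peaks in the whole table. TNRC6C went the other way, with -0.26 over 6 peaks with a match and 0.78 over 10 without. The pooled difference of 0.72 was 0.28 when EIF2C1 was left out and was 0.91 without TNRC6C.

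The miR-17 family, the abundant miRNAs of the miR-17-92 cluster and its relatives, was matched on 5 of the 7 mRNAs. Its 7 peaks had log ratios of 2.21 in the EIF2C2 CDS, 2.13 and 1.03 in TNRC6A, 2.12 and 1.45 in TNRC6B, 1.85 in EIF2C1 and -0.76 in TNRC6C. Of these 6 were above 0, where 93.4% of the 709 miR-17 peaks in other genes were, with a median of 1.85 for members and 1.66 for the others. The miR-30 family was also matched at 7 peaks, in EIF2C1, EIF2C2, TNRC6A and TNRC6C, all above 0, as were 93.3% of the 328 miR-30 peaks of other genes. The member values ran from 0.39 to 2.43 with a median of 1.09, while those of other genes had a median of 1.60. The 3 miR-15/16 peaks, in EIF2C1, TNRC6A and TNRC6B, had 1.38, 1.82 and 1.18, against a median of 0.92 over 991 peaks elsewhere.

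The miR-19 and miR-130/miR-301 seeds were listed together on 4 of the 7 mRNAs. Whether these are overlapping or separate sites was not read. The 2 were listed at 1 3'UTR peak each of EIF2C1, TNRC6A, TNRC6B and TNRC6C, with log ratios of 1.85, 1.31, 2.69 and -0.23. These were 4 of the 5 member peaks with a miR-130/miR-301 match (80.0%) and 4 of the 6 with a miR-19 match (66.7%). In other genes 200 peaks had both, which is 48.5% of those with a miR-130/miR-301 match and 36.4% of those with a miR-19 match, and their median was 1.55. Only the EIF2C1 peak was listed with miR-17 too. That is 14.3% of the 7 member miR-17 peaks. Of miR-17 peaks in other genes, 15.9% had miR-130/miR-301 as well and 8.32% miR-19. The miR-15/16 and miR-103/miR-107 sites also share 6 letters but were listed together at 0 member peaks, of 3 and 2 with either. In other genes both were listed at 20.9% of miR-15/16 and 54.9% of miR-103/miR-107 peaks. These member counts are too small to read.

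Some matched peaks had low values, and the seeds given here were picked after these values were seen. The 2 peaks matching miR-186-3p had -0.82 in EIF2C1, where miR-146 was listed too, and -0.64 in EIF2C2. The median over 203 other miR-186-3p peaks was 0.62, and 67.0% of those were above 0. The 3 peaks matching miR-17-3p, from the other strand of the miR-17 hairpin, had 1.44 in EIF2C2, -0.30 in TNRC6C and -0.86 in EIF2C1, against 0.77 over 155 others. The EIF2C1 peak matching miR-17-3p was listed with the miR-28/miR-708 seed as well. Families with 1 to 3 member peaks give single values, not an estimate for the family.

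**Figure D3:**
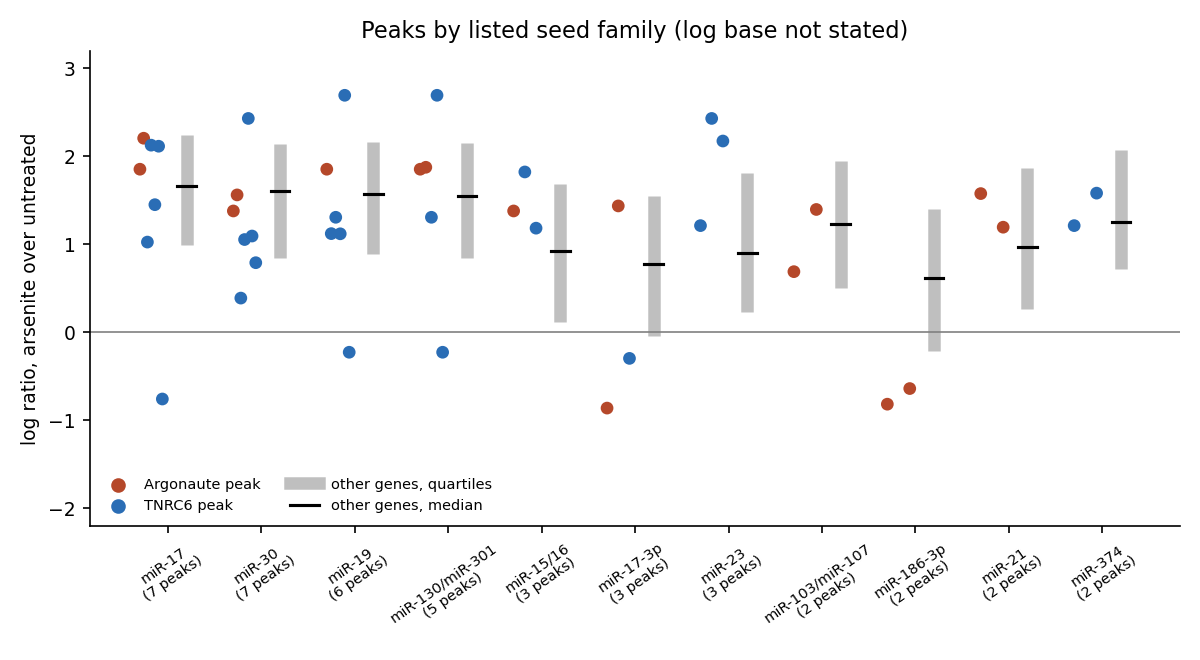
Log ratio, arsenite over untreated (vertical axis, log base not stated), of member peaks grouped by the 11 seed families matched at 2 or more of them. A peak matching several families appears under each, grey bars span the quartiles of the peaks of all other genes with that seed, and black lines are their medians. All 7 miR-30 peaks are above 0, 6 of 7 miR-17 peaks are, and both miR-186-3p peaks are below 0.

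The miRNAs behind these seeds were close in mean abundance on Ago2 with and without arsenite. The authors' deposited table gives, for the most abundant miRNA of each of the 11 families, log2 fold changes between -0.29 and 0.30, with every DESeq adjusted p at 1. For miR-17-5p the authors' deposited table lists means of 444032 with arsenite and 449539 untreated, a log2 fold change of -0.02. That of miR-30e-5p was -0.18 in the authors' deposited table, from means of 1784402 with arsenite and 2014629 untreated. At the upper end, miR-301a-3p stood at 0.30 in the authors' deposited table, with means of 41800 under arsenite and 33861 untreated. These families also differ widely in amount on Ago2. By the mean over both treatments, the miR-30 family held 24.3% of the mature miRNA signal in the authors' deposited table, miR-19 8.99%, miR-17 5.70% and miR-130/miR-301 0.394%.

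Over all 26 families matched on these mRNAs, 0 of the most abundant miRNAs had an adjusted p under 0.05 in the authors' deposited table, and 2 had an unadjusted one. The first was miR-324-3p, matched at a TNRC6A peak (log ratio 0.39), which the authors' deposited table puts at -0.60 on the log2 scale (unadjusted p 0.00771, DESeq adjusted p 1). The other was miR-18a-3p, matched at a TNRC6C peak (log ratio -0.88), which the authors' deposited table puts at -0.57 (unadjusted p 0.0113, DESeq adjusted p 1). A p that misses the threshold does not show that a miRNA was unchanged.

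Overlapping member peaks could differ in log ratio, and whether by more than counting error was not tested, since depth is unknown. In 14 pairs of neighbouring member peaks the intervals overlapped, and in 6 of them the 2 log ratios had opposite signs. The median difference within a pair was 1.04. The same values over all overlapping pairs of the whole table were not worked out, so these are not read as a trait of the members. Overlaps ran from 1 to 48 nucleotides, and those of 1 nucleotide hold only if both ends are included. The largest difference, 1.94, was in a pair sharing 1 nucleotide. At the last 2 coding peaks of TNRC6A, the one matching miR-19 had 1.12 and the one overlapping its end by 25 nucleotides, with no listed seed, had -0.62. One pair in the TNRC6A 3'UTR had identical log ratios of 1.34 and identical log averages of -6.41.

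Most member peaks were modest in signal. Their median log average was -5.95, against -5.17 over the peaks of other genes, and 35 of the 100 were in the lowest 25% of the table. Those 35 had a median log ratio of 0.99 and the other 65 one of 1.03. Over the 100 peaks the Spearman correlation of log ratio with log average was 0.06, given as a description, since peaks share genes and libraries.

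**Figure D4:**
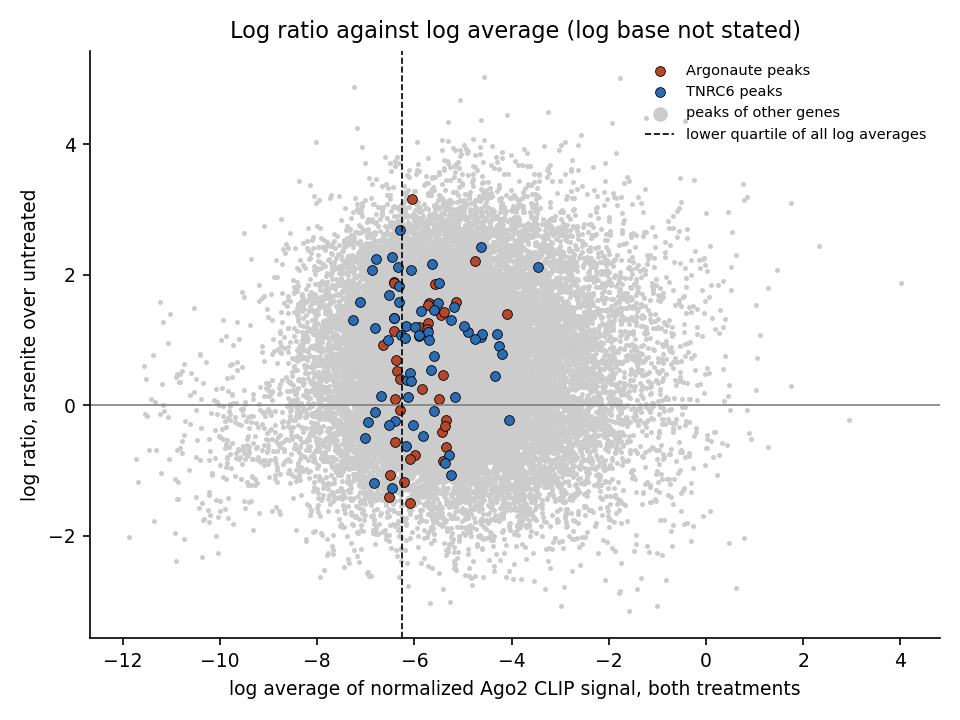
Log ratio, arsenite over untreated (vertical axis), against log average of normalized Ago2 CLIP signal over both treatments (horizontal axis), for Argonaute peaks, TNRC6 peaks and the peaks of all other genes. The log base is not stated, and the dashed line is the lower quartile of all log averages. Of the 100 member peaks, 35 are left of the line, and high and low log ratios occur on both sides.

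Other mRNAs of the silencing pathway leaned the same way as most genes. Of 61 genes for miRNA processing, deadenylation, decapping and Argonaute regulation, 46 had a peak, and at the peak with the highest log average 39 were above 0 (84.8%), against 79.9% of all genes. Their median was 1.39, against 1.10 over all genes. The highest were PABPC4, a poly(A)-binding protein, with 3.91, EIF4E2, a cap-binding repressor, with 2.96, IPO8, an importin that binds Argonautes, with 2.81, and PATL1, a decapping factor, with 2.68. The lowest were DGCR8, the partner of Drosha, with -2.34, TRIM32, a ubiquitin ligase, with -1.18, NANOS1, a partner of Pumilio repressors, with -0.96, and HSP90AA1, a chaperone that helps load Argonautes, with -0.49. Single peaks could stand far from the rest of their gene here too: the median was 0.53 over the 7 PABPC4 peaks and 0.57 over the 16 of HSP90AA1.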

How the data were processed

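Ago2 mRNA CLIP and LO band CLIP libraries of 293S cells, 4 per treatment, entered as 2 tables of the whole series. Bowtie 0.12.8, TopHat, DESeq and hg19 are named in the submitters' processing notes, with no role or order. No source used here names the peak caller or its filters. Per the file headers, the peak table holds a deposited log average and log ratio of normalized CLIP abundance, treated here as scores, with log base and normalizer unstated. The miRNA table holds the authors' mean signal (counts over size factors), ratio (fold), log2 fold change, p-values and adjusted p-values. Columns of single samples numbered 0, so depth is unknown and the planned model across peaks (limma) was not run.

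Rows were taken by gene name, and all 9 of their transcript IDs matched RefSeq (GRCh38.p14). RefSeq was used only for names, miRNA sequences and the order of AGO4, AGO1 and AGO3. Coordinates are as deposited. The files do not say if starts are 0-based or 1-based, and distances and overlaps take both ends as included. Medians, quartiles, counts and Wilson 95% intervals were computed in Python 3.11.15 with pandas 2.3.3 and scipy 1.17.1, and checked on simulated data. The members and lists were chosen with earlier results of these data known. Named genes are the 7 members and the 4 highest and 4 lowest of the pathway list. miRNAs are the most abundant of each matched family, and other peaks and families were named after their values were seen. Alternatives were the peak taken per gene, a filter on low log averages, merging of overlaps, region and leaving out genes.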

Additional observations from a re-analysis of the deposited data

How the results depend on the processing

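Of 62 alternative values, 53 kept their direction and stayed within an interval of the reported value over peaks or, for the pathway count, at the same count. Another 6 moved outside it and 3 changed sign. For single medians and shares this was a 95% interval, except in EIF2C2, EIF2C3 and EIF2C4. Their few peaks gave only the whole range of values, which no subset median could leave. Both TNRC6C filters kept all 16 peaks and so could not move its median. For differences the limits joined the ends of the 2 median intervals and are not a 95% interval. The count of 53 is therefore partly fixed in advance. The median log ratio over member peaks was 1.53 with 1 peak per gene and 1.18 as the median of gene medians, both over 7 genes, and 0.92 to 1.08 with each gene left out in turn. The share of member peaks above 0 was 85.7% with 1 peak per gene, and 58.0% were above the median of all peaks. The difference between Argonaute and TNRC6 peaks turned to 0.16 without EIF2C1, an alternative chosen after seeing the data, like leaving out genes from the seed comparison (0.28 to 0.91). The EIF2C1 median turned to -0.23 without the lowest 25% of log averages, and the cause was not tested. At the single peak with the highest log average it was 1.40, and that of TNRC6C turned to -0.23. Filtering low averages and taking 3'UTR peaks only kept the direction of the other medians. Merging overlaps (86 peaks), tried for the pooled, Argonaute and TNRC6 medians, their difference and the share above 0, kept theirs. No paired analysis was possible because the tables hold 1 value per peak or miRNA over all replicates, and leaving out replicates was not run for the same reason. Depth is unknown, so the precision of single peaks cannot be given.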
